A study of Mus musculus with 8 samples.

Results

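The genes described here build or shape the nuclear envelope of male germ cells. They were taken by symbol from the gene table of a mouse testis RNA-seq series, in which all 8 names were found, out of 17121 genes in all. Sun1 and Majin act in meiosis, and Sun5, Spag4, Dpy19l2, Spata16, Hook1 and Gopc act in spermatids. The series holds 4 libraries with the genotype label N6amt1-SKO (SKO below) and 4 with the label CTL, all labelled testis, and it asks how N6AMT1, a methyltransferase, acts in the making of sperm. The labels give no age, strain, allele or Cre driver and do not spell out SKO. Whether each library is its own animal is not stated. The p-values therefore speak of library-to-library spread, part or all of which may be technical.

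SUN proteins sit in the inner nuclear membrane and join KASH proteins of the outer membrane to form the LINC complex, which ties the nucleus to the cytoskeleton. In meiotic prophase SUN1 and KASH5 pull on chromosome ends, which MAJIN, TERB1 and TERB2 fasten to the membrane. In spermatids the envelope carries other cargo: DPY19L2 holds the acrosome to the nucleus, SUN5 couples the head to the tail, and SPAG4 (also called SUN4) and HOOK1 serve the manchette, the microtubule skirt that shapes the head. SPATA16 and GOPC act at the Golgi apparatus, from which the acrosome forms. Mouse mutants of Dpy19l2 and Gopc are known for round-headed sperm, and the azh mutation of Hook1 for abnormally shaped heads.

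The values are read counts that had been scaled per library and rounded by the authors. They were rescaled here by TMM, a trimmed mean of gene ratios, and are called normalised values. Column totals of the table were 94.2 to 102.9 M in SKO and 101.6 to 103.1 M in CTL. In 6 libraries the scaling factor could be read from the values. Behind them stood 40.6 to 65.6 M reads in SKO 1 to 4 and 57.4 to 70.1 M in CTL 3 and 4. The 48 values of the 8 genes in these libraries rested on 693 to 29895 reads each. N6amt1 itself had a mean of 582 ± 31.1 in SKO and 513 ± 84.6 in CTL (SD, n = 4 each; limma adjusted p = 0.437). The deleted part of the gene is not in the labels, so this does not check the genotype. The extraction text names heart ventricles. Pachytene spermatocyte markers summed to 602948 to 652652 in SKO and 954320 to 1058630 in CTL, while 5 heart muscle markers summed to 4184 to 6521 in SKO and 2086 to 2745 in CTL. The largest part of the heart sum was Tnni3, with means of 4041 in SKO and 1391 in CTL. The heart list held 8 genes, of which Myl2, Myl3 and Nppa were not among the deposited genes. SKO 4, CTL 3 and CTL 4 stood apart in 18S ribosomal RNA, which took 0.721% to 0.969% of their values and 0.173% to 0.273% of those of the other 5. Mitochondrial protein genes took 2.11% to 4.53% in SKO and 1.13% to 1.99% in CTL, which was not tested as a part of any result below.

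Of the 8 genes, 2 fell in SKO (Dpy19l2 and Spata16), 0 rose and 6 did not pass limma's test at an adjusted p below 0.05. At an unadjusted p below 0.05, 3 fell and 0 rose, while 6321 of the 17066 genes tested passed in either direction. At an adjusted p below 0.05, 7.93% of all genes tested fell and 11.9% rose, or 19.9% in either direction. All 8 genes had a lower mean log2 value in SKO, by 0.08 to 0.85, with a median log2 fold change of -0.31, against 0.04 over all genes tested. Of all 17066 genes tested, 8114 had a lower mean. With library totals as the scaling, Sun1, Majin, Sun5 and Spag4 had a higher mean log2 value in SKO. The groups did not overlap for 1 of the 8, Dpy19l2, which was lower in each SKO library. Over all genes 10.6% were lower in this way, 15.6% were higher, and 26.1% did not overlap in either direction. In whole testis, fewer cells of a type and less RNA per cell cannot be told apart.

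**Figure D1:**
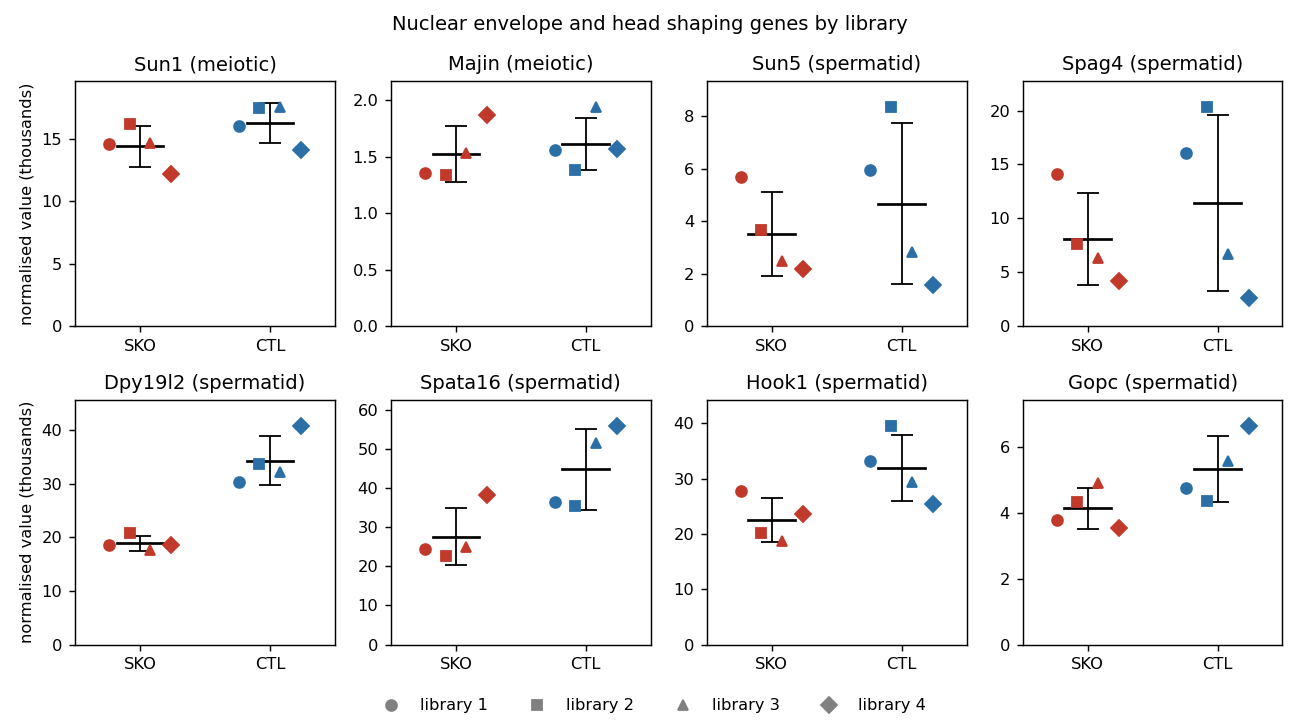
Normalised values of the 8 genes (in units of 1000, linear axis from 0) in each library, SKO in red and CTL in blue, with symbols for library numbers, horizontal lines for means and bars for SDs (n = 4 each). Dpy19l2 is the gene whose groups are apart, at 17549 to 20760 in SKO and 30339 to 40830 in CTL, whereas Sun5 and Spag4 spread widely within both groups.

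The meiotic genes differed little. Sun1 (GRCm38, chromosome 5, 139200637 to 139249840, plus strand) had normalised values of 14585, 16204, 14693 and 12215 in SKO 1 to 4, against 16041, 17532, 17552 and 14122 in CTL 1 to 4. The groups overlapped, with SKO 2 above CTL 1 and CTL 4. Its log2 fold change was -0.18, with a 95% interval of -0.49 to 0.13 (limma adjusted p = 0.377). These are values of whole testis, and the part of somatic cells in them was not tested. A gene on the opposite strand overlaps 3.98% of its exon bases, and the library kit does not mark strand.

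Majin (chromosome 19, 6184388 to 6224225, plus strand), the membrane anchor of meiotic telomeres, had 1352, 1341, 1533 and 1870 in SKO 1 to 4, against 1560, 1381, 1938 and 1573 in CTL 1 to 4. SKO 4 and CTL 3 were the highest of their groups, and the groups overlapped over most of their range. Its log2 fold change was -0.08, with a 95% interval of -0.46 to 0.29 (limma adjusted p = 0.753). For both meiotic genes a fall as large as that of Dpy19l2 lies outside the interval.

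The partners of SUN1 and MAJIN did not pass either. The telomere gene Terb1 had a mean of 4044 ± 954 in SKO and 6395 ± 2339 in CTL (SD, n = 4 each), a log2 fold change of -0.62 (limma adjusted p = 0.107). Terb2 averaged 807 ± 99.8 in SKO and 751 ± 116 in CTL (SD, n = 4 each; limma adjusted p = 0.691). Kash5 averaged 10502 ± 2900 in SKO and 11964 ± 1917 in CTL (SD, n = 4 each; limma adjusted p = 0.48).

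Sun2, a relative of Sun1, rose. It had 7429, 8036, 8697 and 6070 in SKO 1 to 4, against 4711, 4875, 5119 and 5135 in CTL 1 to 4, and all SKO libraries were above all CTL libraries. The log2 fold change was 0.60 with a standard error of 0.14 (limma adjusted p = 0.0212). Of 15 Sertoli cell markers 12 rose and 0 fell as well, and their summed level was 198815 to 411802 in SKO and 93946 to 208949 in CTL. Their part in the rise of Sun2 was not tested. Scaling libraries to equal Sertoli marker levels put Sun2 at -0.45 (limma adjusted p = 0.116), but it moved all genes down, to a median of -0.99, so this sign says nothing particular to Sun2. Without any 1 of SKO 1, SKO 2, SKO 3, CTL 1, CTL 2 and CTL 3 its adjusted p lay between 0.0515 and 0.0761, at log2 fold changes of 0.52 to 0.60.

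Of the 11 other LINC and telomere attachment genes tested, Sun2 was the 1 that rose and 0 fell. Their median log2 fold change was 0.02, against 0.04 over all genes. Over all genes 11.9% rose and 7.93% fell, so the count risen is near the share of the whole table. Sun3, a spermatid SUN gene, averaged 2846 ± 795 in SKO and 3761 ± 1547 in CTL (SD, n = 4 each; limma adjusted p = 0.426). Of its exon bases 9.47% overlap a gene on the opposite strand.

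**Figure D2:**
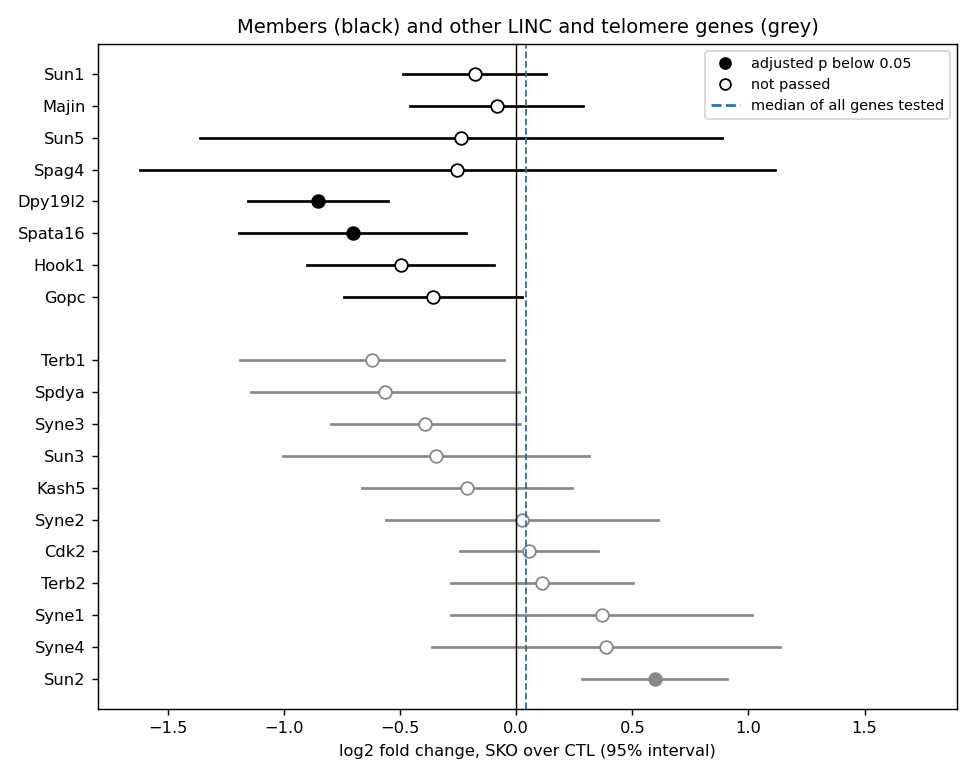
Log2 fold changes (SKO over CTL) of the 8 genes in black and of 11 other LINC and telomere attachment genes in grey, with 95% intervals, filled symbols where limma's adjusted p is below 0.05, and a dashed line at the median of all genes tested (0.04). Dpy19l2, Spata16 and Sun2 are filled, and the intervals of Sun5 and Spag4 are the widest of the 8, from -1.36 to 0.89 and from -1.62 to 1.11.

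The spermatid SUN genes Sun5 and Spag4 varied more within the groups than between them. Sun5 (chromosome 2, 153856188 to 153871084, minus strand) had normalised values of 5701, 3658, 2489 and 2183 in SKO 1 to 4, against 5936, 8342, 2831 and 1566 in CTL 1 to 4. SKO 1, CTL 1 and CTL 2 were high, CTL 4 was the lowest, and the range spanned 2.61-fold within SKO and 5.33-fold within CTL. The log2 fold change was -0.24 with a standard error of 0.50 (limma adjusted p = 0.772).

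Spag4 (chromosome 2, 156065175 to 156070617, plus strand) had 14134, 7647, 6338 and 4136 in SKO 1 to 4, against 16022, 20312, 6668 and 2639 in CTL 1 to 4. The same libraries were high as for Sun5, and the range spanned 3.42-fold within SKO and 7.70-fold within CTL. The log2 fold change was -0.25 with a standard error of 0.61 (limma adjusted p = 0.803). Over the 8 libraries the log2 values of Sun5 and Spag4 had a Pearson correlation of 0.99, given as a description, since all genes of a library share its cells and scaling.

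Markers of elongating spermatids, such as the transition protein gene Tnp2, were high in the same libraries. Summed over 9 genes they came to 488577, 141557, 142933 and 136047 in SKO 1 to 4, against 478990, 576128, 233277 and 77574 in CTL 1 to 4. Of these 9 genes 0 rose and 0 fell, and likewise 0 of 9 round spermatid markers. The round spermatid markers summed to 62819 to 146165 in SKO and to 54304 to 207564 in CTL. The part of spermatid content in the values of Sun5 and Spag4 was not tested.

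The fold changes of Sun5 and Spag4 were of unlike size in the 18S sets, and the difference between the sets was not tested. Within the 5 libraries with less 18S (SKO 1 to 3, CTL 1 and 2) their log2 fold changes were -0.92 (limma adjusted p = 0.074) and -1.03 (limma adjusted p = 0.0512). Within SKO 4 against CTL 3 and 4 they were 0.07 and -0.00332. The second set holds a single SKO library, which is assumed to vary as the CTL libraries do.

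**Figure D3:**
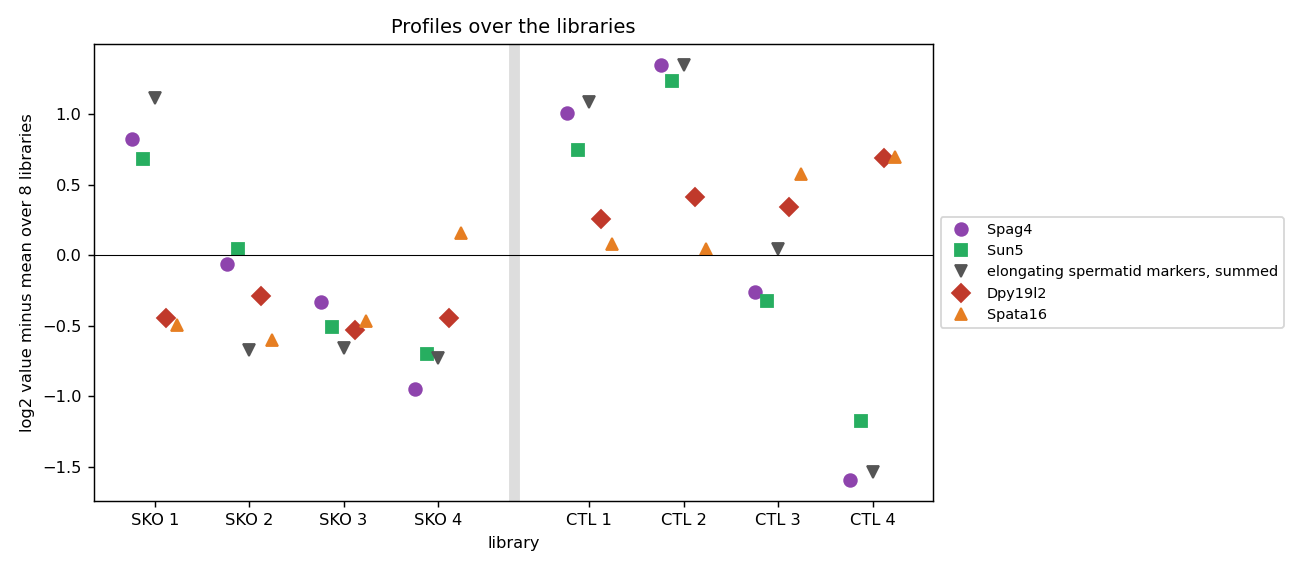
Log2 values of Spag4, Sun5, Dpy19l2, Spata16 and the summed elongating spermatid markers in each library, each minus its mean over the 8 libraries. Spag4, Sun5 and the markers are high in SKO 1, CTL 1 and CTL 2, while Dpy19l2 is below its mean in all 4 SKO libraries and above it in all 4 CTL libraries.

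Dpy19l2 had the lowest adjusted p of the 8 genes. The gene (chromosome 9, 24557047 to 24696293, minus strand) encodes the inner nuclear membrane protein that anchors the acrosome. Its normalised values were 18624, 20760, 17549 and 18610 in SKO 1 to 4, against 30339, 33764, 32197 and 40830 in CTL 1 to 4. The highest SKO library lay well below the lowest CTL library, and the SKO libraries lay within 1.18-fold of each other. Means were 18886 ± 1347 in SKO and 34282 ± 4584 in CTL (SD, n = 4 each). The log2 fold change was -0.85 with a standard error of 0.14, or 1.81-fold lower (limma adjusted p = 0.0123), and 3.26% of all genes tested had a log2 fold change as low or lower.

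The fall of Dpy19l2 was of similar size in the 18S sets, with log2 fold changes of -0.76 within the lower set (limma adjusted p = 0.0165) and -0.94 within the higher (limma adjusted p = 0.0921, with a single SKO library). Without SKO 3, limma called 0 genes in the whole table (4784 at an unadjusted p below 0.05). Dpy19l2 was then at -0.82 with an adjusted p of 0.0569, the smallest value in the table, which other genes such as Rimbp3 and Spag17 shared.

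Spata16 (chromosome 3, 26637620 to 26983212, plus strand), which acts in acrosome formation from the Golgi apparatus, fell by 0.70 on the log2 scale (standard error 0.22, limma adjusted p = 0.0488). It had 24425, 22714, 24901 and 38427 in SKO 1 to 4, against 36481, 35561, 51508 and 56034 in CTL 1 to 4. SKO 4 stood above CTL 1 and CTL 2, so the groups overlapped, and the 3 libraries with more 18S were the highest of their groups. Means were 27617 ± 7267 in SKO and 44896 ± 10420 in CTL (SD, n = 4 each), 1.63-fold lower in SKO.

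This call lay just inside the threshold. It was lost without SKO 1, SKO 2, SKO 3, CTL 3 or CTL 4, with adjusted p-values of 0.0796 to 0.132 and log2 fold changes of -0.62 to -0.68. With the 18S set as a term in the model the log2 fold change was -0.55 (limma adjusted p = 0.00566). Within the lower 18S set it was -0.59 (limma adjusted p = 0.0165), and within the higher set -0.47 (limma adjusted p = 0.327).

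Stretches of promoter are shown for the 2 genes that fell and, for contrast, for Spag4, whose libraries followed the late spermatid markers. They come from RefSeq (GRCm38.p6), which has such windows for 7 of the 8 genes, and annotated starts differ between sources. The Dpy19l2 stretch lies before the GENCODE start (24696293), but part of it lies inside the RefSeq span of the gene, which runs to 24696457. Those of Spata16 and Spag4 run a short way past their earliest annotated starts (26637620 and 156065175). Capitals mark matches, on either strand, to 2 sequences chosen after the windows had been seen: CACGTG, the E-box bound by basic helix-loop-helix factors, and TGACGTCA, the cyclic AMP response element bound by factors such as CREM. The Dpy19l2 stretch is chr9:24696294-24696543 on the minus strand, that of Spata16 chr3:26637381-26637630 on the plus strand and that of Spag4 chr2:156064963-156065204 on the plus strand.
Dpy19l2: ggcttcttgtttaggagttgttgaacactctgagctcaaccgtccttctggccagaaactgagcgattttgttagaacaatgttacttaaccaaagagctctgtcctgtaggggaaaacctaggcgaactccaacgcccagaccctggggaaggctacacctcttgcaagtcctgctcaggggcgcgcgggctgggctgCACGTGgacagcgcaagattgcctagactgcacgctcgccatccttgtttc
Spata16: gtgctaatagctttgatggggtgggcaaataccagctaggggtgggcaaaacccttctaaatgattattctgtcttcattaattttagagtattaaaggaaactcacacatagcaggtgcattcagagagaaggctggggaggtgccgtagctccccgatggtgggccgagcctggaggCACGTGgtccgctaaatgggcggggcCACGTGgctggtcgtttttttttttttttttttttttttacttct
Spag4: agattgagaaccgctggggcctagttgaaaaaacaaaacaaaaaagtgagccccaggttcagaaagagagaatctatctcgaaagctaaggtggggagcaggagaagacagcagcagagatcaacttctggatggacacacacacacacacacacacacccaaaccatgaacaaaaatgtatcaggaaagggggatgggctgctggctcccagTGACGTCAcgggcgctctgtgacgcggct

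In the 300-base windows, positions are counted from the start that RefSeq's window is set on. CACGTG occurred once in Dpy19l2, with its first base at -51, inside the RefSeq span of the gene, and 2 times in Spata16, at -71 and -45. It occurred 0 times in the windows of Sun1, Sun5, Spag4, Hook1 and Gopc. Of all 32851 windows 7.15% held it. TGACGTCA occurred in the window of Spag4, at -37, and in 0 windows of the other 6 genes, against 1.79% of all windows. The shorter TGACG, which is part of it, was counted as well. It was found 4 times in Spag4, 2 times in a window of Sun1, and 1 time each in Dpy19l2 and Gopc. Sun5, Spata16 and Hook1 had 0, and 20.8% of all windows held it. The TGACGTCA match in Spag4 lies just past the GENCODE start (156065175) and before the start of the RefSeq span (156065188). These are matches of letters, not measured binding.

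Gopc and Hook1 had lower means in SKO without passing. Gopc (chromosome 10, 52335850 to 52382124, minus strand), a trans-Golgi protein of acrosome formation, had 3781, 4318, 4913 and 3526 in SKO 1 to 4, against 4748, 4363, 5580 and 6641 in CTL 1 to 4. SKO 3 lay above CTL 1 and CTL 2, so the groups overlapped. A gene on the opposite strand overlaps 0.794% of its exon bases. The log2 fold change was -0.36, with a 95% interval of -0.74 to 0.02 (limma adjusted p = 0.157). Within the 18S sets it was -0.08 in the lower and -0.77 in the higher, and neither passed.

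Hook1 (chromosome 4, 95967240 to 96025413, plus strand), a linker of cargo to microtubules, had 27740, 20195, 18738 and 23535 in SKO 1 to 4, against 33216, 39548, 29391 and 25476 in CTL 1 to 4. SKO 1 lay above CTL 4, and the other SKO libraries lay below all CTL libraries. The log2 fold change was -0.50, with a 95% interval of -0.90 to -0.10 and an unadjusted p of 0.0205 (limma adjusted p = 0.0764). It passed as lower with the 18S set as a term (-0.54, limma adjusted p = 0.0388), within the lower 18S set (-0.73, limma adjusted p = 0.0311) and without CTL 4 (-0.63, limma adjusted p = 0.0424). The log2 fold change of Hook1 was -0.20 within the higher 18S set, which holds a single SKO library. Without CTL 1 and CTL 2 it was -0.34 (limma adjusted p = 0.207). Of the exon bases of Hook1, 3.81% are shared with a noncoding gene on the opposite strand.

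Per kilobase of exon, Spata16 was the most abundant of the 8 genes, at 13076 ± 3441 in SKO and 21258 ± 4934 in CTL (SD, n = 4 each). Dpy19l2 followed in both groups at 5487 ± 391 in SKO and 9960 ± 1332 in CTL. Sun5, Hook1, Spag4 and Sun1 had means per kilobase of 1669 to 2847 in SKO and 2147 to 3836 in CTL. Sun5 and Spag4 spread too widely to be placed in order among these 4. Majin had 929 ± 151 in SKO and 983 ± 142 in CTL, and Gopc was the lowest, at 377 ± 56.1 in SKO and 487 ± 92.1 in CTL.

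Set side by side, 0 of 2 meiotic genes and 2 of 6 spermatid genes fell, with median log2 fold changes of -0.13 and -0.43. Over all genes tested 7.93% fell, at a median of 0.04. Of the spermatid calls, that of Spata16 lay just inside the threshold. With so few members the contrast is a description, and no test was made of the classes. Ratios within a library do not depend on the scaling of that library. The log2 ratio of Sun1 to Dpy19l2 was -0.35, -0.36, -0.26 and -0.61 in SKO 1 to 4, against -0.92, -0.95, -0.88 and -1.53 in CTL 1 to 4. All SKO libraries were above all CTL libraries, so Dpy19l2 was lower relative to Sun1 in each of them.

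The log2 ratio of Majin to Dpy19l2 likewise did not overlap, at -3.95 to -3.31 in SKO and -4.69 to -4.05 in CTL. Lack of overlap was not confined to pairs of a meiotic and a spermatid gene. The ratio of Majin to Terb1, both meiotic, lay at -1.54 to -1.32 in SKO and -2.61 to -1.63 in CTL. Those of Dpy19l2 to Spata16 and of Dpy19l2 to Spag4 overlapped. The ratio of Sun1 to Spag4 overlapped too, at 0.05 to 1.56 in SKO and -0.21 to 2.42 in CTL. That of Spag4 to Sun5 averaged 1.16 ± 0.20 in SKO and 1.18 ± 0.29 in CTL (SD, n = 4 each). Its spread within each group was smaller than that of the ratio of Sun1 to Spag4, whose SDs were 0.65 in SKO and 1.24 in CTL.

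**Figure D4:**
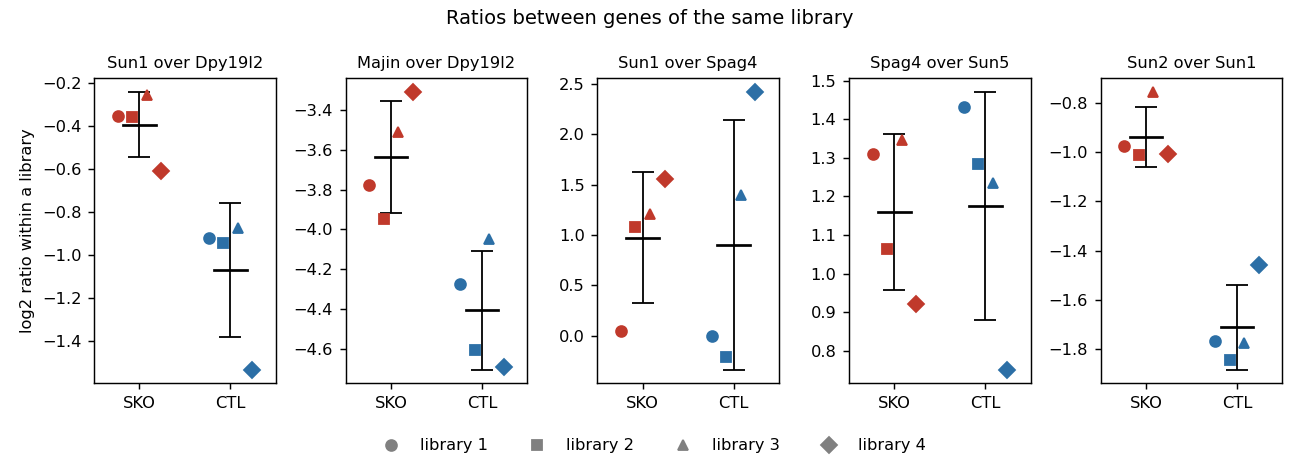
Log2 ratios between genes of the same library (normalised value plus 5), SKO in red and CTL in blue, with means and SDs (n = 4 each) and an axis range of its own in each panel. The ratios of Sun1 and Majin to Dpy19l2 and of Sun2 to Sun1 are higher in every SKO library, and those involving Spag4 overlap.

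The profiles of the 8 genes over the libraries fell into several kinds. By Pearson correlation of log2 values over 8 libraries among 15765 genes, the gene most like Dpy19l2 was Adam2 (0.99). Adam2 encodes a sperm surface protein and is counted here among the pachytene markers. It fell too, with means of 32585 in SKO and 57303 in CTL (limma adjusted p = 0.0123). Spata16 was most like Gpr160 (0.996; means of 15750 in SKO and 28462 in CTL, limma adjusted p = 0.0494). Spag4 was most like Acp4 (0.999), Sun5 most like Ttc23l (0.998) and Hook1 most like Cdkl3 (0.99). Sun1 was most like Adamts3 (0.98), Majin most like Hars (0.98) and Gopc most like BC005537 (0.97). With 15765 candidates and 8 libraries such values arise easily and carry no test. Among the 8 genes, Dpy19l2 had a correlation of 0.79 with Spata16, 0.72 with Gopc, 0.63 with Hook1, 0.46 with Sun1, 0.02 with Sun5 and -0.04 with Spag4.

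Genes that share the work of the spermatid members were lower in part. Of 20 manchette and head shaping genes 7 fell and 0 rose, with a median log2 fold change of -0.64. Rimbp3, a manchette protein that binds HOOK1 in mouse, had a mean of 53384 ± 1969 in SKO and 126355 ± 36154 in CTL (SD, n = 4 each), 2.30-fold lower (limma adjusted p = 0.0123). Spag17, a protein of the central pair of the sperm tail, was 2.18-fold lower (limma adjusted p = 0.0123). A gene on the opposite strand takes in 9.66% of the exon bases of Spag17. These counts, too, stand against 7.93% of all genes fallen.

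Of 19 other genes known from mouse mutants with acrosome defects 5 fell and 0 rose, with a median of -0.43. Gba2, a glucosylceramidase, was 1.75-fold lower (limma adjusted p = 0.0153), and Golga3, a Golgi matrix protein gene, 1.61-fold lower (limma adjusted p = 0.0226). Of 10 head-tail coupling genes 2 fell and 0 rose, with a median of -0.54. Tsga10 averaged 20184 ± 501 in SKO and 33068 ± 3944 in CTL (SD, n = 4 each; limma adjusted p = 0.0134), and Ccdc42 was 1.42-fold lower (limma adjusted p = 0.0386). The counts of these 3 lists moved with the scaling and the 18S set. Of the acrosome genes 2 fell with library totals, 18 with Sertoli marker levels as the scaling and 12 within the lower 18S set. Of the manchette genes 5, 20 and 12 fell in the same order, and of the head-tail genes 1, 8 and 6. Over all genes, 456 of 17066, 10892 of 17066 and 2283 of 17003 fell in that order, against 7.93% with TMM over all 8 libraries. Medians of the acrosome, manchette and head-tail genes were -0.62, -0.63 and -0.77 within the lower 18S set. Within the higher set, with a single SKO library, they were -0.23, -0.53 and -0.30. Without SKO 3, 0 genes of the 3 lists passed.

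Of 16 genes of the nuclear lamina and inner nuclear membrane 2 rose and 0 fell, with a median log2 fold change of 0.20. This count is near the 11.9% of all genes that rose. Tmem43, an inner nuclear membrane protein gene, had a mean of 2101 ± 179 in SKO and 1285 ± 126 in CTL (SD, n = 4 each; limma adjusted p = 0.0145). Tor1a, an ATPase of the lumen between the nuclear membranes, averaged 1287 ± 178 in SKO and 814 ± 172 in CTL (limma adjusted p = 0.0349). With library totals as the scaling 7 of the 16 rose and 0 fell, while 4885 of 17066 genes rose, at a median of all genes of 0.33. With Sertoli marker levels as the scaling 0 rose and 11 fell, at a median of all genes of -0.99, a shift of the whole table. Without SKO 3, 0 rose.

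Germ cell and somatic markers of the same libraries moved as follows. Of 10 pachytene markers 6 fell and 0 rose, with a median log2 fold change of -0.68, and of 12 early prophase markers 1 rose and 0 fell, with a median of 0.28. The pachytene sums do not overlap, as given above, and the early prophase sums were 111120 to 171215 in SKO and 113913 to 166161 in CTL. Of 7 Leydig cell markers 1 rose, and of 8 macrophage markers 2 rose, with 0 fallen in each. The Leydig list was mixed, with log2 fold changes of -1.17 to 1.04 and a median of 0.06. All these counts stand against 7.93% fallen and 11.9% risen over all genes. The part of these marker shifts in the falls of Dpy19l2 and Spata16 was not tested.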

How the data were processed

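Per the labels, TRIzol was used for RNA and a NEBNext Ultra kit, which does not mark strand, for the libraries. The submitters' processing notes name featureCounts 1.5.0-p3, HISAT2 2.0.5, fastp and CASAVA, and build mm10. The authors deposited 1 table of gene symbols, whose values are a score: rounded products of read counts and 1 factor for each library, as the values show. In 6 libraries 100% of distinct values up to 1000 were rounded multiples of 1 factor, where 43.1% to 68% would be by chance. In CTL 1 and CTL 2 nearly every whole number occurred, so their factors lie close to 1 or below it. Neither these factors nor the reads behind them could be read from the values. The scaling method and the treatment of multiply mapped reads are not given in the sources used here.

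A gene was kept if 4 or more libraries reached a value of 25 (17066 of 17121, all 8 members included). After division by TMM factors (trims of 30% and 5%), log2(value + 5) was modelled by genotype alone in limma 3.58.1 (R 4.3.3), with a mean trend in the prior variance. Tests are two-sided, adjusted by Benjamini-Hochberg over all genes tested. Fold changes are on that scale. Libraries were grouped by title, and the method was tested on simulated data. Coordinates, exon lengths and overlaps come from GENCODE M21 (GRCm38, the assembly of mm10). Alternatives were other scalings, constants, filters, variance models, the 18S sets (split at 0.5%), depth, a replicate block and each library left out.

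The members and lists were chosen with earlier results of these data known. Named besides the members are N6amt1, the SUN relatives and partners, the gene most alike to each member (mean of at least 100), and up to 2 risen and 2 fallen genes per related list. Marker lists are given by counts and sums, with a few of their genes named.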

Additional observations from a re-analysis of the deposited data

Results flagged for a closer look

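In SKO 4 the normalised value of Spata16 was 38427, against 22714 to 24901 in the other 3 SKO libraries. The gap to the nearest of them took 0.861 of the range of the group, above Dixon's critical value of 0.829 for 4 samples. Of the 16 groups of 4 values examined (8 genes in SKO and CTL) this was the 1 flagged, and chance flags about 5% of groups. SKO 4 was also the SKO library with more 18S and the highest mitochondrial share. Without it the log2 fold change of Spata16 was -0.87 (limma adjusted p = 0.0216).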

How the results depend on the processing

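Dpy19l2 was lower in all 21 alternatives run, by log2 fold changes of -1.90 to -0.56, and passed in 19 (limma adjusted p of 0.00127 to 0.0921). Spata16 was lower in all 21 (-1.75 to -0.41) and passed in 12 (limma adjusted p of 0.00299 to 0.327). Hook1 and Gopc were lower in all 21 and passed in 4 and 2. The count of members fallen was 1 with upper quartile factors, 1 with library totals, 1 without the mean trend, 8 with Sertoli marker factors, 0 within the higher 18S libraries, and 0 to 2 with 1 library left out, where the risen count was 0 to 0. In all, 3392 genes were called, against 5341 with library totals, 10899 with Sertoli marker factors, 5477 in the lower 18S set, 295 in the higher 18S set, and 0 to 3981 with 1 library left out. Risen genes made up 60.1% of calls, against 49.2% with median-ratio factors, 91.5% with library totals and 0.0642% with Sertoli marker factors, where the median of all genes was -0.99. With library totals it was 0.33, and Sun1, Majin, Sun5 and Spag4 turned to 0.11, 0.21, 0.052 and 0.037, all below that median. Within the higher 18S libraries Majin turned to 0.12 and Sun5 to 0.069. Without CTL 1 and CTL 2, Sun5 turned to 0.58 and Spag4 to 0.75. With 1 library left out they ranged from -0.70 to 0.088 and from -0.86 to 0.11. The cause of these changes was not tested. The replicate block gave 2 members fallen and 3863 genes called. Same-numbered libraries had deviation correlations of 0.67, 0.01, 0.08 and 0.23, so the numbers were not taken to pair them.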
